A study of Arabidopsis thaliana with 6 samples.

Results

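Jasmonate synthesis was followed through 10 genes of Arabidopsis thaliana, chosen by locus: the lipoxygenase genes LOX2 (AT3G45140), LOX3 (AT1G17420) and LOX4 (AT1G72520), the allene oxide synthase gene AOS (AT5G42650), the allene oxide cyclase genes AOC1 (AT3G25760), AOC2 (AT3G25770) and AOC3 (AT3G25780), the reductase gene OPR3 (AT2G06050), the ligase gene OPCL1 (AT1G20510) and the conjugating enzyme gene JAR1 (AT2G46370). All 10 were measured, by 9 of the 22746 probe sets tested (which name 21894 genes in all), because AOC1 and AOC2 share a probe set. No gene of the 10 had a second probe set. AOC1, AOC2 and AOC3 lie next to each other in the locus order of the TAIR10.1 gene table, with 0 protein-coding genes between neighbours. The files name no genome build, so no coordinates are given.

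Jasmonates are fatty acid hormones that switch on defence and wound responses and slow growth, and they are needed for stamen development. Synthesis starts in the plastid, where lipoxygenases oxidise linolenic acid, allene oxide synthase turns the product into an unstable epoxide, and allene oxide cyclases close it to oxo-phytodienoic acid. In the peroxisome OPR3 reduces that compound, OPCL1 activates the product with coenzyme A, and beta-oxidation shortens it to jasmonic acid. JAR1 then joins jasmonic acid to isoleucine, which gives the active hormone. The hormone makes the receptor COI1 remove the JAZ repressors, and several synthesis genes are among the targets that this frees.

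RNA came from whole seedlings of ecotype Col-0, and each sample was hybridised to 1 Affymetrix array. Seeds of both groups first spent 72 h in the cold (4 °C) and dark on solid medium, and the plants then grew at 23 °C and about 70% humidity, with 16 h of light (about 100 μmol per square metre and second) and 8 h of darkness. The 3 control samples stayed under light without heat, and the 3 heat samples spent 30 min at 37 °C, also under light. The labels give the control samples ages of 10, 11 and 12 days and the heat samples 13, 14 and 15 days, while the series text gives a single age, and dark-treated groups named in that text were not analysed here. Nothing says that the samples of a group were grown separately, so p-values measure only the spread between these samples.

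Array medians ran from 4.39 to 4.53 and minima from 2.53 to 2.66 on the log2 scale. The standard deviation of the difference between 2 arrays was 0.19 to 0.28 within the heat group and 0.36 to 0.55 within the control group, with the largest value between controls 1 and 3. The gap between the 3′ and 5′ probe sets of the GAPDH control gene, a measure of RNA quality, was 2.18 to 2.54 in the control arrays and 1.33 to 1.69 in the heat arrays. For actin it was 4.69 to 5.12 and 4.41 to 4.65, and for ubiquitin 1.79 to 2.12 and 1.79 to 1.98. The part of RNA quality in the changes below was not tested. All 4 leaf markers were bright (12.9 to 14.1 over all arrays, PSBO1 lowest), and root markers ran from 3.98 for COBL9 to 6.38 for PHT1;1. PSBO1 (-0.48, adjusted p = 0.0065) and PHT1;1 (-0.82, adjusted p = 0.0316, a shared probe set) were called lower after heat, and their part in the changes below was not tested. The 3 floral organ markers stayed between 3.03 and 3.65 and the 3 seed storage markers between 3.12 and 4.26. The summed leaf marker level was 15.7 to 15.8 in control and 15.5 to 15.6 in heat arrays.

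After heat, LOX2 alone among the 9 probe sets passed the test, and it was higher. No member was called lower, although LOX3, LOX4, AOC3, OPR3 and OPCL1 had mean levels 1.03 to 2.28 log2 units lower after heat. These genes stood far apart in the control arrays, while in each of them the heat arrays lay within 0.27 of each other. Of all tested probe sets 19.3% were called, 7.82% higher and 11.5% lower, against 1 higher and 0 lower of 9 here. With a change of at least 1 log2 unit also asked for, 6.78% of all probe sets and 0 members were called. The median change over the 9 was -1.03, against 0.02 over all probe sets. At an unadjusted p under 0.05, 2 members differed, LOX2 and JAR1. In whole seedlings, fewer expressing cells and less RNA per cell cannot be told apart.

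**Figure D1:**
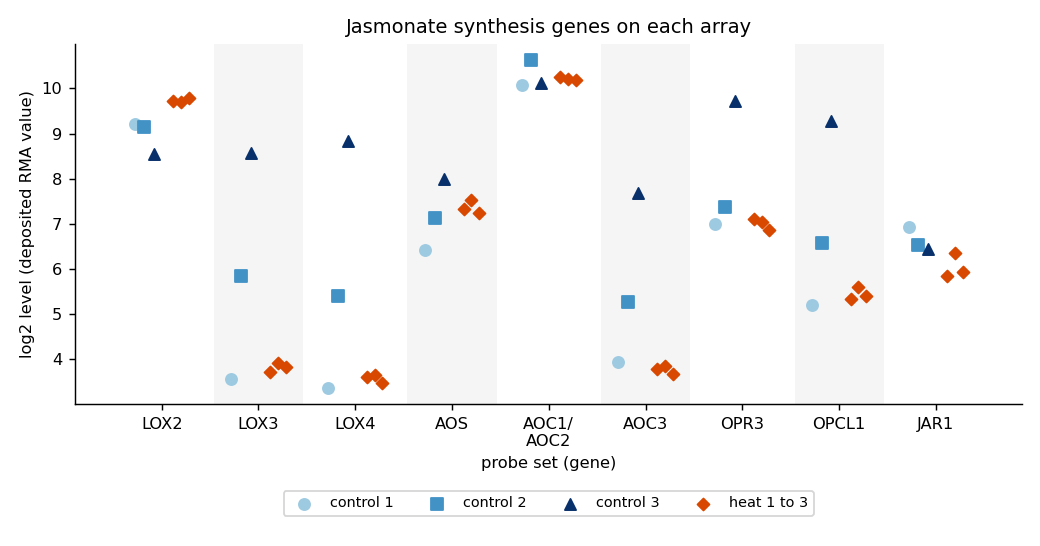
Log2 level of each of the 9 probe sets on each of the 6 arrays, with control arrays as blue symbols and heat arrays as orange diamonds. Heat arrays lie within 0.52 of each other for every probe set (JAR1 widest), while LOX3, LOX4, AOC3, OPR3 and OPCL1 are highest in control 3, between 7.69 and 9.72.

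Among the lipoxygenases of this pathway, LOX2 ran in another order over the control arrays than LOX3 and LOX4, a difference that was not tested. LOX2, the abundant leaf enzyme that supplies much of the jasmonate made after wounding, was at 9.21, 9.14 and 8.55 in control arrays 1, 2 and 3 and at 9.71, 9.70 and 9.79 in the heat arrays. All heat arrays lay above all control arrays, and control 3 was the lowest. LOX2 rose by 0.77 ± 0.18 (log2 change ± SE, 1.7-fold, adjusted p = 0.0269), from 8.97 ± 0.36 to 9.73 ± 0.05 (mean ± SD, n = 3 each). The call was lost without heat replicate 1, 2 or 3 (adjusted p = 0.0872, 0.0698 and 0.0954), with changes of 0.74 to 0.78. Over all probe sets these fits called 1035, 1489 and 1049 higher, against 1778 with all arrays. With the arrays scaled to spiked Bacillus transcripts (the Bacillus scaling) the change was 0.26 and not called (adjusted p = 0.295). That scaling moved the median of all probe sets from 0.02 to -0.49, so the changes given here are relative to the bulk of the transcripts. The mean level of the Bacillus probe sets was 6.4, 6.41 and 6.47 in the control arrays. In heat arrays 1, 2 and 3 it was 7.0, 6.65 and 7.14, and the scaling carries this spread into every heat value.

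LOX3, which acts with LOX4 in fertility and in part of the wound response, was at 3.57, 5.85 and 8.56 in control arrays 1, 2 and 3 and at 3.71, 3.92 and 3.84 in the heat arrays. Control 1 lay below the heat arrays, and control 3 was 31.8-fold above control 1. LOX4 was at 3.37, 5.40 and 8.83 in the control arrays and at 3.62, 3.66 and 3.48 in the heat arrays. Here control 3 was 44.2-fold above control 1, the widest control span among the members. The change was -2.17 ± 1.12 for LOX3 (95% interval -4.85 to 0.51, adjusted p = 0.241). For LOX4 it was -2.28 ± 1.24 (-5.24 to 0.68, adjusted p = 0.262). Neither passed, and the intervals hold both no change and falls of over 4 log2 units. Adding the labelled age to the model gave changes of -6.01 for LOX3 (adjusted p = 0.172) and -6.28 for LOX4 (adjusted p = 0.212), neither called. That model fits a single age slope to both groups, while the heat arrays of these genes spanned only 0.21 and 0.18. Its changes carry the rise over the control arrays on to the ages of the heat samples, which no control had. Control 1 and the heat arrays lay under the array medians for both genes, and how much of such a level is background was not measured.

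AOS encodes the only allene oxide synthase of this plant. Its level was 6.43, 7.13 and 7.99 in control arrays 1, 2 and 3 and 7.32, 7.53 and 7.23 in the heat arrays. All heat arrays fell between controls 2 and 3, unlike those of LOX3 and LOX4, which fell between controls 1 and 2. The change of AOS was 0.17 ± 0.36 (95% interval -0.70 to 1.05, adjusted p = 0.792), and it was -0.20 without control replicate 1 and -0.33 after the Bacillus scaling, neither called.

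Among the cyclase genes, the shared probe set and AOC3 ran in different orders over the control arrays, and no test compared them. The probe set of AOC1 and AOC2 was at 10.08, 10.62 and 10.12 in the control arrays and at 10.25, 10.21 and 10.18 in the heat arrays. The groups overlapped, with control 2 highest, and the change was -0.06 ± 0.15 (95% interval -0.42 to 0.30, adjusted p = 0.842), or 0.05 with each array centred on its median. What either gene did by itself cannot be read from this probe set. AOC3, the neighbour of AOC2, was at 3.95, 5.27 and 7.69 in the control arrays and at 3.78, 3.86 and 3.68 in the heat arrays. Every heat array lay below every control array, by 0.09 at the closest. Control 1 and the heat arrays lay under the array medians and within the range of the floral and seed storage markers (3.03 to 4.26), and how much of these levels is background was not measured. The change was -1.86 ± 0.85 (95% interval -3.90 to 0.17, adjusted p = 0.188) and did not pass, nor did it with the labelled age as a covariate (-4.58, adjusted p = 0.192). The limit of the age model given for LOX3 and LOX4 holds here too.

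Both peroxisomal enzyme genes were highest in control 3. OPR3 was at 7.00, 7.37 and 9.72 in control arrays 1, 2 and 3 and at 7.10, 7.05 and 6.86 in the heat arrays. Control 1 lay among the heat arrays, and control 3 was 6.56-fold above control 1. The change of OPR3 was -1.03 ± 0.66 (95% interval -2.62 to 0.56, adjusted p = 0.344). OPCL1 was at 5.20, 6.58 and 9.27 in the control arrays and at 5.34, 5.60 and 5.40 in the heat arrays. Control 1 lay below the heat arrays, and control 3 was 14.1-fold above their mean. The change of OPCL1 was -1.57 ± 0.93 (95% interval -3.80 to 0.66, adjusted p = 0.302). Adding the labelled age to the model gave changes of -2.89 for OPR3 (adjusted p = 0.317) and -4.67 for OPCL1 (adjusted p = 0.204). The limit of that model given for LOX3 and LOX4 applies, with heat spans of 0.24 and 0.27 here.

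JAR1 was at 6.92, 6.53 and 6.45 in control arrays 1, 2 and 3 and at 5.84, 6.36 and 5.93 in the heat arrays. Every heat array lay below every control array, and control 1 was the highest. The change was -0.59 ± 0.18 (95% interval -1.02 to -0.16) with an adjusted p of 0.0656, short of the threshold. It passed without heat replicate 2 (-0.75, adjusted p = 0.0338), where 8.75% of all probe sets were called lower, and with array weights (-0.64, adjusted p = 0.028), where 13.5% were.

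**Figure D2:**
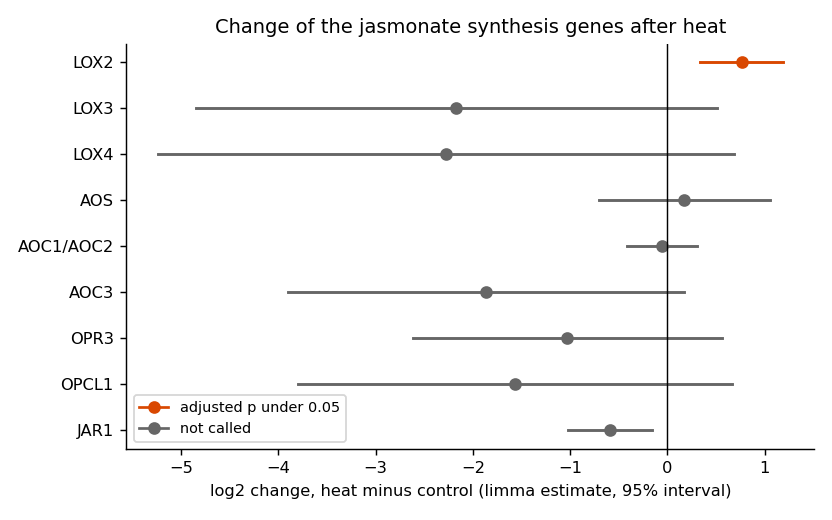
Log2 change after heat (heat minus control, limma estimate) of the 9 probe sets, with bars for the 95% interval and orange for an adjusted p under 0.05. The interval of LOX2 (0.34 to 1.19) lies above 0, that of JAR1 (-1.02 to -0.16) below 0, and those of LOX3, LOX4, AOC3, OPR3 and OPCL1 are wide and hold 0. None of the intervals is adjusted for the number of probe sets.

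The heat and control groups did not overlap for 3 of the 9 probe sets, LOX2 above and AOC3 (at the low levels given above) and JAR1 below, while 38.8% of all tested probe sets did not overlap, 18.8% with heat above and 20.0% with heat below. An exact permutation test (2-sided) cannot give a p below 0.1 with 3 arrays against 3, and these 3 genes reached that value. Without control replicate 1, 7 of the 9 probe sets did not overlap, as did 48.9% of all probe sets in that design of 2 control arrays against 3. In that fit 10.8% of all probe sets were called lower, among them LOX3 (-3.38, adjusted p = 0.0255), LOX4 (-3.53, adjusted p = 0.0458) and AOC3 (-2.70, adjusted p = 0.0362). Without control replicate 3, the changes were -0.89 for LOX3, -0.80 for LOX4, -0.84 for AOC3, -0.18 for OPR3 and -0.44 for OPCL1, none called (lowest adjusted p = 0.169, for AOC3). After the Bacillus scaling 42.5% of all probe sets were called lower, and so were 7 members, all but LOX2 and AOS, at -0.56 for AOC1 and AOC2 to -2.78 for LOX4. The prior there carried 41.4 degrees of freedom in place of 2.65, and 0 members were called without that moderation.

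Since single controls decide these values, each control array was also set by itself against the mean of the 3 heat arrays. As linear folds of control over heat mean, LOX3 was at 0.838, 4.07 and 26.7 for controls 1, 2 and 3, and LOX4 at 0.859, 3.52 and 37.9. AOC3 was at 1.13, 2.82 and 15.0, and OPCL1 at 0.841, 2.2 and 14.1. These genes were near the heat level in control 1 and far above it in control 3. For LOX2 every control was below the heat mean (0.696, 0.663 and 0.441), and for JAR1 every control was above it (1.83, 1.41 and 1.33). In the authors' deposited table, which pairs arrays of the same replicate number, the linear ratio of control over heat for LOX3 was 0.906, 3.81 and 26.4 for pairs 1, 2 and 3. For LOX4 the authors' deposited table gives 0.84, 3.35 and 40.8, and for OPCL1 0.909, 1.97 and 14.6. The ratios of AOC3 in the authors' deposited table were 1.12, 2.66 and 16.1, and those of OPR3 0.937, 1.25 and 7.24. All 5 genes thus had ratios near 1 in pair 1 and their highest in pair 3. For LOX2 the authors' deposited table gives 0.706, 0.679 and 0.424, below 1 in every pair. The ratios of JAR1 there were 2.11, 1.13 and 1.44, above 1 in every pair.

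The control arrays spanned over 1 log2 unit for 6 of the 9 probe sets, LOX3, LOX4, AOS, AOC3, OPR3 and OPCL1, against 4.76% of all tested probe sets. In all 6 control 3 was the highest and control 1 the lowest. Over all tested probe sets 1082 had such a span, and 689 of them had this order (3.03% of all). Most probe sets with such a span thus shared the order. In all 6 the heat arrays spanned under 0.5, as they did for 750 of those 1082 (3.3% of all probe sets). Control 3 was over 1 above control 1 in the same 6 (3.35% of all), and control 2 was over 1 above control 1 in 4 of them (1.46% of all). No member spanned over 1 log2 unit in the heat arrays, as 0.892% of all probe sets did. The median span was 2.71 in control and 0.21 in heat arrays over the members, and 0.26 and 0.22 over all probe sets. In 5 of the 6, all but AOS, control 1 lay within 0.5 of the heat mean and control 3 lay over 2 above it. LOX2, the AOC1 and AOC2 probe set and JAR1 spanned 0.66, 0.53 and 0.46 in the control arrays. A single array against another has no test, so these are descriptions of the arrays. By the labels control 1 was the youngest sample of its group (10 days) and control 3 the oldest (12 days), so age and the difference between these arrays cannot be told apart.

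Profiles over the 6 arrays, each centred on its own mean, were compared by their root mean square difference. Within the pathway the closest pairs were AOC3 with OPCL1 (0.19) and LOX3 with LOX4 (0.23), and the farthest were LOX2 with LOX4 (2.36) and LOX2 with LOX3 (2.20). Among the 20539 other single-gene probe sets with a locus, AOC3 was the nearest to OPCL1, and LOX3 was the nearest to LOX4. The nearest to AOC3 were RBOHD (0.10), an oxidase that makes superoxide at the plasma membrane, NPR3 (0.17), a salicylate receptor, and AT1G74440 (0.17). RBOHD was at 5.98, 7.38 and 9.86 in the control arrays and at 6.01, 5.79 and 5.82 in the heat arrays.

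The nearest to LOX3 were COBL8 (0.19), ERF13 (0.19), an ethylene response factor, and MYB15 (0.20), a stress-responsive transcription factor. After LOX3, those nearest to LOX4 were AT2G35290 and ERF13 (0.30 each). OPR3 was closest to the transporter gene OCT6 (0.08), AT1G24140 (0.11) and AT1G78280 (0.13). After AOC3, OPCL1 was closest to AT5G58120 (0.20) and BON1 (0.21). AOS was closest to AT5G18400 (0.08), AT3G06760 (0.11) and AT5G45630 (0.16). LOX2 was closest to AT4G02920 (0.07), AT4G01280 (0.08) and the polyubiquitin gene UBQ4 (0.08). These lists describe 6 arrays that fall into 2 groups.

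Among the jasmonate response genes, the JAZ repressors differed between the controls in the same order. Of the 11 JAZ repressors measured, 7 spanned over 1 log2 unit in the control arrays, all 7 with control 3 highest and control 1 lowest. Of all tested probe sets 3.03% had this order with such a span, which is 689 of the 1082 with such a span. JAZ1 was at 5.56, 8.11 and 10.13 in the control arrays and at 5.74, 6.21 and 5.48 in the heat arrays. Among the enzymes that inactivate the hormone, CYP94B3 was at 4.76, 6.87 and 9.11 in the control arrays and at 5.84, 6.50 and 5.59 in the heat arrays. CYP94C1 was at 3.58, 3.76 and 7.02, and at 3.53, 3.65 and 3.74. The other 9 enzymes that modify or break down jasmonate spanned less than 1 log2 unit in the control arrays. In perception and transcription 2 of 7 genes had this order with a span over 1. Of the 8 probe sets of jasmonate-induced output genes 0 had it, and their median of control 3 minus control 1 was -0.44.

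Touch and wound genes also moved with the controls. All 10 genes of a list that touch or wounding raises within minutes spanned over 1 log2 unit in the control arrays. Of all tested probe sets 4.76% did. Control 3 was over 1 above control 1 in all 10 (3.35% of all). The list, like the others, was chosen with earlier results of these data known, so these counts only describe it. WRKY40, a transcription factor of this list, was at 5.35, 10.41 and 11.62 in the control arrays and at 3.85, 3.90 and 3.82 in the heat arrays. The touch-induced calmodulin-like gene TCH3 was at 7.78, 10.34 and 11.95, and at 8.61, 8.04 and 8.48. The heat arrays lay above all controls for 1 gene of the list and below all controls for 4 (18.8% and 20.0% of all probe sets). The gene above was ZAT12, at 5.94, 8.05 and 8.90 in the control arrays and at 9.15, 9.38 and 9.15 in the heat arrays. It was not called (1.59, adjusted p = 0.166). CBF2, a cold-response factor, was the one gene of the list that was called. It fell by 2.52 (adjusted p = 0.0255), from between 6.07 and 8.14 in the control arrays to between 4.56 and 5.49 in the heat arrays. How this call fared in the alternatives was not summarised. The summed level of the list was 10.8, 13.6 and 14.7 in controls 1, 2 and 3 and 11.6 to 12.0 in the heat arrays, and its part in the levels of the synthesis genes was not tested. The median of control 2 minus control 1 was 2.78 over this list, 0.70 over the synthesis genes and 0.20 over the JAZ genes. The median of control 3 minus control 1 was 3.84, 2.71 and 2.08 in the same order.

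**Figure D3:**
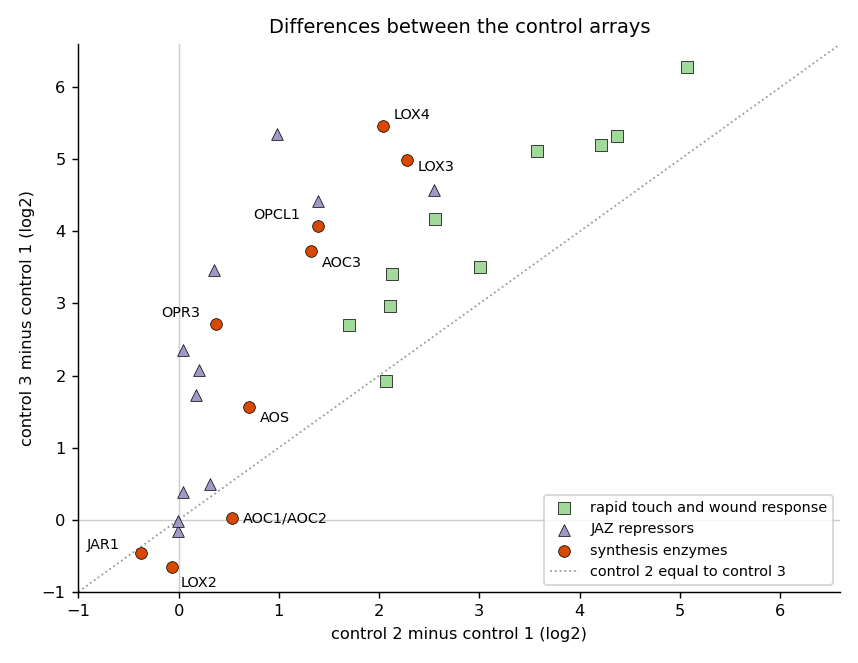
Log2 difference of control 2 from control 1 (horizontal) and of control 3 from control 1 (vertical) for the synthesis genes, the JAZ genes and the touch and wound genes. LOX3, LOX4, AOC3, OPR3, OPCL1 and AOS lie above the dotted line of equal difference, and LOX2 and JAR1 are lower in control 3 than in control 1.

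The rest of the pathway was read through 7 lists beside the synthesis genes. Of their 60 probe sets 4 were called higher (6.67%) and 8 lower (13.3%), near the 7.82% and 11.5% of all tested probe sets. In precursor release 0 of 6 probe sets rose and 2 fell, with a median of -0.28. FAD2, the desaturase that makes linoleic acid in the endoplasmic reticulum, was at 11.94, 12.23 and 11.73 in the control arrays and at 11.04, 11.21 and 11.22 in the heat arrays. FAD2 fell by 0.81 (SE 0.14, adjusted p = 0.00878) and its plastid counterpart FAD6 fell by 0.53 (SE 0.15, adjusted p = 0.0497). The call on FAD6 was lost without heat replicate 1, 2 or 3 (adjusted p = 0.136, 0.121 and 0.134). Over all probe sets these fits called 1473, 1990 and 1536 lower, against 2614 with all arrays. The probe set shared by FAD7 and FAD8, which make the linolenic acid of the plastid, differed by -0.33 (adjusted p = 0.222).

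Among paralogues and the competing branch 1 of 6 probe sets rose and 0 fell, with a median of 0.08. The gene that rose was AOC4, the cyclase gene outside the cluster of AOC1 to AOC3. Its level was 7.32, 7.02 and 7.28 in the control arrays and 8.05, 8.12 and 8.13 in the heat arrays. AOC4 rose by 0.89 ± 0.10 (adjusted p = 0.00166), and the groups stood apart by 0.73 at the closest. The call held whichever array was left out, and the change was 0.39 after the Bacillus scaling and not called (adjusted p = 0.119). LOX6, a lipoxygenase of the vascular tissue that acts early after wounding, was at 5.44, 5.92 and 5.80 in the control arrays and at 5.59, 6.09 and 5.76 in the heat arrays (0.09 ± 0.17, adjusted p = 0.768).

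In peroxisomal import and beta-oxidation 1 of 11 probe sets rose and 1 fell, with a median of 0.04. MFP2, a multifunctional protein of beta-oxidation, rose by 0.51 (adjusted p = 0.0417), and PXA1, the importer of the precursors, fell by 0.42 (adjusted p = 0.0391). Leaving out any array but control 1 ended the call on MFP2 (adjusted p up to 0.138), and leaving out any array but control 3 ended that on PXA1 (up to 0.108). The change of MFP2 was 0.01 after the Bacillus scaling. ACX1, the acyl-CoA oxidase with the main part in jasmonate synthesis, differed by -0.17 (adjusted p = 0.32).

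In modification and breakdown 0 of 11 probe sets rose and 1 fell, with a median of -0.06. The called probe set names IAR3, whose enzyme cleaves jasmonate conjugates, together with ILL5, and it fell by 0.82 (adjusted p = 0.0487). That call was lost without control replicate 2 or any 1 of the heat replicates (up to 0.138). Those fits called 1473 to 1990 of all probe sets lower, against 2614 with all arrays. CYP94B3 and CYP94C1 were not called (-0.94 and -1.14, adjusted p = 0.574 and 0.422).

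In perception and transcription 0 of 7 genes rose and 3 fell, with a median of -0.16. MYC2, the transcription factor that drives many jasmonate targets, was at 6.44, 8.70 and 9.65 in the control arrays and at 4.67, 4.80 and 4.58 in the heat arrays. The lowest control array still stood 1.64 above the highest heat array. MYC2 fell by 3.58 (SE 0.74, adjusted p = 0.0184). JAM1, a related factor that represses jasmonate responses, was at 4.69, 5.53 and 6.90, and at 3.73, 3.59 and 3.53, and it fell by 2.09 (SE 0.51, adjusted p = 0.0315). NINJA, the adaptor of the JAZ proteins, fell by 0.46 (adjusted p = 0.0251). The calls on MYC2 and JAM1 were lost without control replicate 2 or any 1 of the heat replicates (up to 0.0705 and 0.103). Those fits called 1473 to 1990 of all probe sets lower, against 2614 with all arrays. For NINJA the call ended when control 1, control 2, heat 1 or heat 3 was left out (up to 0.0698). The receptor gene COI1 was at 5.37, 4.85 and 4.99, and at 4.71, 5.12 and 4.89, a difference of -0.16 ± 0.17 (adjusted p = 0.555).

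Of the 11 JAZ genes 0 rose and 1 fell, with a median of -0.90. JAZ6 was at 6.37, 6.57 and 8.45 in the control arrays and at 4.77, 4.41 and 4.39 in the heat arrays. It fell by 2.61 (SE 0.53, adjusted p = 0.0168), a call lost without any 1 of the heat replicates (up to 0.0679). Without 1 heat replicate, 1473 to 1990 of all probe sets were called lower, against 2614 with all arrays. JAZ11 had no probe set naming it. Among jasmonate-induced output genes 2 of 8 probe sets rose and 0 fell, with a median of 0.19. CORI3, a cystine lyase gene, was at 5.81, 5.35 and 4.71, and at 6.69, 6.99 and 6.74, and it rose by 1.52 ± 0.27 (adjusted p = 0.00977). In CORI3, as in LOX2, control 3 was the lowest array. The lectin gene JR1 rose by 0.41 (adjusted p = 0.0394), a call that ended when any array but control 1 was left out (up to 0.109), and it was -0.10 after the Bacillus scaling. The probe set shared by the storage protein genes VSP1 and VSP2 varied within the heat group (4.50, 6.95 and 5.77) and differed by -0.70 ± 0.62 (adjusted p = 0.497).

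**Figure D4:**
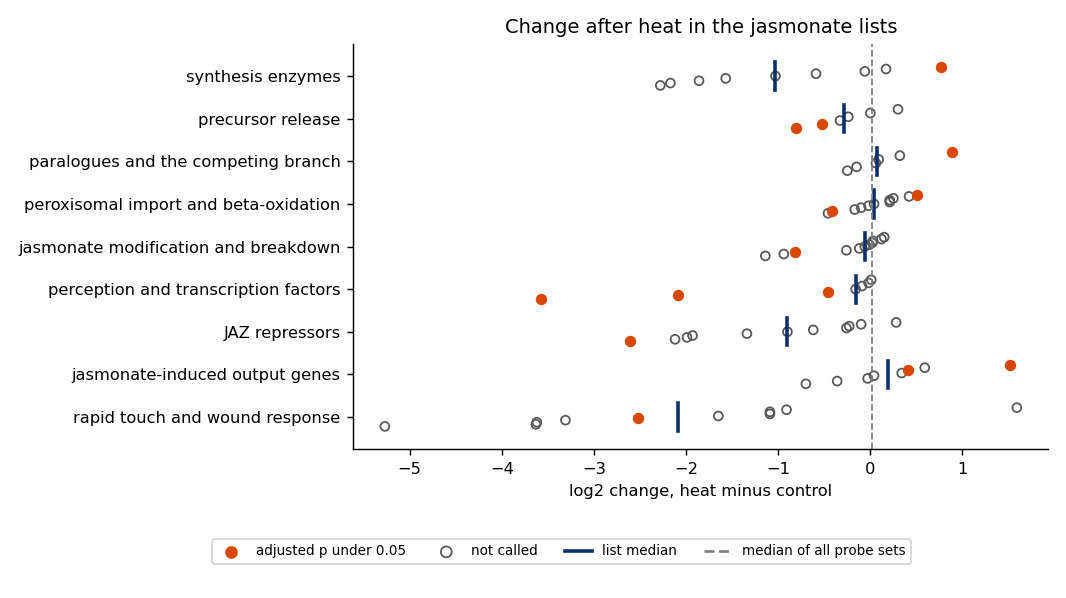
Log2 change after heat (heat minus control) of each probe set in the synthesis list, the 7 other jasmonate lists and the touch and wound list, with called genes filled, blue bars at list medians and a dashed line at the median of all probe sets. The list medians run from -2.08 for touch and wound genes, where 1 of 10 was called lower, to 0.19 for output genes.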

How the data were processed

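RNA of 3 control and 3 heat samples was measured on 1 array each. The deposited values are log2 levels per probe set made by the authors with RMA, per the submitters' processing notes, and were not normalized again. The RMA version is not given in the sources used here, nor is the annotation release. Ratios of control over heat are the authors', per the file headers. The 6 columns of array means in the authors' annotated table were not used. Loci were linked to probe sets through the Entrez identifiers of the authors' annotation and the RefSeq table of TAIR10.1, with the highest-mean probe set per gene. Of the 98 list entries, members included, 97 matched, all 10 members among them.

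The 64 control probe sets were left out and 22746 were tested with limma 3.58.1 in R 4.3.3 (lmFit, eBayes, group as only factor, 2-sided, residual degrees of freedom 4, prior 2.65), and p-values were adjusted over all of them by Benjamini-Hochberg. "Called", "rose" and "fell" mean an adjusted p under 0.05, and errors of changes are limma standard errors. Precision is limited by having 3 arrays a group. The fit was tested on simulated data with the same spread in both groups. That test does not cover genes whose control arrays vary more than their heat arrays. Members and lists were written from general knowledge and chosen with earlier results of these data known. Named genes were all members, up to 4 called genes of each list with the largest change, the 3 nearest profiles of each member that was called or spanned over 1 log2 unit in the controls, and COI1, MYC2, LOX6, AOC4 and VSP2. ACX1, FAD7, FAD8, JAZ1, JAZ11, CYP94B3, CYP94C1, WRKY40, TCH3, ZAT12, CBF2 and the tissue markers were named after their values were seen. Alternatives covered scaling, filtering, the prior, array weights, a replicate block, labelled age, the choice of probe set, a fold minimum and leaving out each array. Bacillus scaling without moderation was added after seeing the data. Figures used Python 3.11.15 with matplotlib 3.10.9. No promoter or protein sequence was used here.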

Additional observations from a re-analysis of the deposited data

How the results depend on the processing

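The member called higher, LOX2, was not called (count 0) with quantile normalization (0.65, adjusted p = 0.0599), Bacillus scaling with or without moderation, no moderation, the labelled age (adjusted p = 0.166) or a 2-fold minimum. Leaving out single arrays gave 0 to 1 members higher and 0 to 3 lower. Of all 22746 probe sets the same fits called 1035 to 1774 higher and 1473 to 2807 lower. Members called lower were 7 with Bacillus scaling, where 42.5% of all probe sets were, and 1 with array weights, where 13.5% were. Members whose groups did not overlap numbered 3 to 7 when single arrays were left out. The 7 came without control replicate 1, where 48.9% of all probe sets did not overlap, against 38.8% with all arrays. For the other arrays that share was not computed. Over the 7 other lists the 4 higher calls became 7 with median centring, 1 with Bacillus scaling, 0 with that scaling and no moderation, 2 with a prior trend, 1 with no moderation, 0 with the labelled age, 1 with a 2-fold minimum and 2 to 6 without single arrays. The 8 lower calls became 5 with median centring, 34 with Bacillus scaling, 0 with no moderation and 0 with the labelled age. They became 3 with a 2-fold minimum and 1 to 8 without single arrays. Over all probe sets the 1778 higher calls became 3054 with median centring, 643 with Bacillus scaling and 371 with that scaling and no moderation. They became 1676 with a prior trend, 971 with no moderation and 359 with the labelled age. The 2614 lower calls over all probe sets became 2126, 9667, 1178 and 227 with median centring, Bacillus scaling, no moderation and the labelled age. Signs turned for AOS (-0.33 with Bacillus scaling in both fits, -0.93 with the labelled age, -0.20 to 0.58 without single arrays), for the AOC1 and AOC2 probe set (0.05 with median centring, -0.15 to 0.12 without single arrays), for LOX6 (-0.41 with Bacillus scaling in both fits, -0.02 with array weights, -0.30 with the labelled age, -0.05 to 0.20 without single arrays) and for JR1 (-0.10 with Bacillus scaling in both fits). None of these turned values was called. The cause of these differences was not tested. The labelled age runs with the groups and cannot be told apart from them, and its model fits a single slope to both.

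The deviations of same-numbered arrays had correlations of 0.044, 0.192 and -0.077. With 3 arrays a group these values cannot tell whether the replicate number pairs the samples. With the replicate number as a block, 1 member was higher and 0 lower (LOX2 adjusted p = 0.0498), and over the 7 lists 3 were higher and 5 lower.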
